A study of Mus musculus with 6 samples.

Results

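DNA methylation was described at 10 genes for neuronal RNA-binding and splicing regulators in the dentate gyrus of the mouse, the part of the hippocampus in which new neurons are made in adult life. The genes were Rbfox1, Rbfox2, Rbfox3, Celf2, Celf4, Celf5, Nova1, Nova2, Elavl3 and Elavl4, 10 of 25544 annotated genes with at least 1 covered CpG. They were chosen by name and family, with earlier results of these data known. Every CpG from 1 kb before the start of the gene to its end was taken, which gave 1386 sites of 890041 in the data. Of these, 715 lay within 1 kb of a transcript start of the gene (promoter sites) and 671 in the rest of the gene (body sites). None of the 10 genes was without a site, and all 10 had at least the 5 sites asked for in the tests across genes.

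The samples were 6 libraries of micro-dissected dentate gyrus from female C57BL/6JRj mice aged 4.5 months, each from a different mouse. Of these mice, 3 had lived in standard cages (STD) and 3 in environmental enrichment (ENR), and no other treatment or allele separated the groups. The assay, RRBS (reduced representation bisulfite sequencing), reads CpG-rich fragments cut at CCGG, and each value is the percentage of reads at a cytosine that were methylated. The number of reads behind a value is unknown beyond a minimum of 10, so that no counting interval can be given and a thinly read site weighs as much as a deeply read one. The tissue holds several cell types, and a percentage cannot tell fewer methylated cells of a type from a change within cells.

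RNA-binding proteins of these families bind short motifs in precursor and mature messenger RNA and thereby set which exons are joined, how long the transcript lasts and where it is translated. Rbfox proteins promote or repress exons according to whether they bind after or before them, and Rbfox3 is the antigen of the widely used neuronal marker NeuN. Nova proteins regulate exons of synaptic transcripts, Celf proteins act on splicing, stability and translation, and the Elavl proteins of neurons, HuC (Elavl3) and HuD (Elavl4), bind AU-rich RNA and accompany neuronal differentiation. In vertebrate genomes CpG-dense promoters are usually free of methylation, while CpGs within genes are often methylated.

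The stretches below show the sequence on which the main contrasts rest, 5′ to 3′ on the strand of the gene, from the GRCm38 (mm10) reference. Capitals mark CpGs with a covered cytosine. The first 2 lie before the gene starts of Nova1 and Rbfox2 and show unmethylated promoters, the third lies at a start inside Celf5 where methylation was intermediate, the fourth is the intronic stretch of Rbfox3 with the lowest p among the 1 kb tiles of the 10 genes, and the fifth is an intronic stretch of Elavl4 with high methylation.
Nova1, chr12:46819322-46819482, minus strand: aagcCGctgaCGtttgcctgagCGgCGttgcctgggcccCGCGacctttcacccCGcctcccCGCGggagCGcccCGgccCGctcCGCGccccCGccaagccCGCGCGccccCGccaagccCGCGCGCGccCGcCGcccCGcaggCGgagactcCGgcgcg
Rbfox2, chr15:77307055-77307247, minus strand: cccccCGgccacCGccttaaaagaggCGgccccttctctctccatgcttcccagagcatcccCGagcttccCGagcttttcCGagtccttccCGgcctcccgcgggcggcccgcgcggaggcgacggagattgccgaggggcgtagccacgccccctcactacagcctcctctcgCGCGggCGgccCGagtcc
Celf5, chr10:81474831-81474962, minus strand: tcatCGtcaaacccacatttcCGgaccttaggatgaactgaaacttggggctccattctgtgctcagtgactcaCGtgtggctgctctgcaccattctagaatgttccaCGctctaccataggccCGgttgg
Rbfox3, chr11:118825379-118825502, minus strand: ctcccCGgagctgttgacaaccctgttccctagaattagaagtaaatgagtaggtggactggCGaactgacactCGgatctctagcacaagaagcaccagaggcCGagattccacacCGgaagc
Elavl4, chr4:110261226-110261413, minus strand: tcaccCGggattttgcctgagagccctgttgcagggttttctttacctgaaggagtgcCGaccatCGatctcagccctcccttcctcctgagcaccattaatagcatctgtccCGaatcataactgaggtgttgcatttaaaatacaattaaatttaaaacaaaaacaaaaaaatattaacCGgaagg
The Nova1 stretch holds 30 CpGs in 161 bases, and its 43 covered cytosines averaged 1.04% over the 6 libraries, with library means from 0.684% to 1.27%. The Rbfox2 stretch holds 23 CpGs in 193 bases and averaged 1.12% at 14 cytosines. The 7 cytosines of the Celf5 stretch, which has 5 CpGs in 132 bases, averaged 25.1% and ranged from 10.02% to 57.1%. Those of the Rbfox3 stretch averaged 21.7%, and the 5 cytosines of the Elavl4 stretch averaged 89.3%, with site means up to 95.2%.

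At the level of libraries, means over the 1386 sites were 18.2%, 17.3% and 14.9% in STD 1, 2 and 3, and 18.3%, 17.6% and 13.1% in ENR 1, 2 and 3. The library numbered 3 was the lowest in each group, as it was over all 890041 sites (22.5% in STD 3 and 21.3% in ENR 3, against 23.9% to 24.3% in the other libraries). Body sites carried most of this spread, with means from 24.3% to 34.0%, while promoter means stayed between 2.71% and 3.99%. The share of the 1386 sites at 0% was 44.1%, 46.8% and 53.0% in the STD libraries and 49.9%, 54.2% and 56.4% in the ENR libraries. The groups overlapped, although the share was higher in ENR at each of the 3 replicate numbers, and the mean over all 890041 sites was lower in ENR at each number. The labels state no link between same-numbered libraries. Promoter methylation of cell type markers was given as library means over the covered sites of each list. For granule neurons (Prox1, Calb1 and Neurod1) it was 1.95% to 2.43% in STD and 1.26% to 1.87% in ENR. These low values did not overlap, with STD 2 (1.95%) and ENR 1 (1.87%) the nearest. Among 17654 promoters of single genes, 5.65% were lower in ENR without overlap. For astrocytes (Gfap, Slc1a3 and Aqp4) it was 22.6% to 28.7% in STD and 17.5% to 23.9% in ENR, lower in ENR at each replicate number. Over all 6 libraries it was 2.64% to 3.91% for other neurons (2 of 3 genes covered), 10.5% to 14.6% for oligodendrocytes (2 of 4), 3.15% to 6.50% for endothelium (1 of 2) and 37.8% to 82.7% for microglia (1 of 3, with 3 sites), and these groups overlapped. Promoter methylation is not expression, so that these values do not measure the cell composition, whose part in the results was not tested.

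First, promoters were compared with gene bodies. Promoter methylation was low in all 10 genes, and body methylation was higher in each of the 9 genes that had body sites. The promoter of Nova1 was the lowest, at 1.13% ± 0.334 (SD, n = 6 libraries) over 100 sites, and all of its covered sites lay within 1 kb of the gene start. Rbfox2 followed with 1.62% ± 0.738, Elavl4 with 1.73% ± 0.885, Elavl3 with 2.04% ± 0.289, Rbfox3 with 2.21% ± 0.428, Nova2 with 2.29% ± 1.40 and Rbfox1 with 2.90% ± 0.724. Neighbours in this order differed by less than the larger of their SDs between libraries. The promoters of the Celf genes stood above all of them, with 5.87% ± 1.08 in Celf2, 6.03% ± 1.56 in Celf5 and 7.54% ± 1.79 in Celf4. The median over the 10 promoters was 2.25%, and the median over 17654 gene promoters with at least 5 sites was 2.05%.

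Gene bodies ranged over nearly the whole scale. The 6 body sites of Elavl4 averaged 87.5% ± 2.38 (SD, n = 6 libraries), and those of Celf2 56.8% ± 5.35 (60 sites), Rbfox1 44.8% ± 5.49 (79 sites), Rbfox3 35.2% ± 4.54 (246 sites) and Celf5 31.3% ± 3.02 (38 sites). Bodies of Celf4 (16.2% ± 4.003, 154 sites), Nova2 (10.3% ± 1.91, 62 sites), Elavl3 (4.91% ± 1.56, 14 sites) and Rbfox2 (4.44% ± 2.39, 12 sites) were lower. The median of the 9 bodies was 31.3%, below the 48.8% over 9835 genes with at least 5 body sites. Sites of coding exons outside promoters averaged 8.48% (59 sites), those of untranslated or noncoding exons 18.9% (71 sites) and those of introns 34.6% (541 sites). Single genes did not all follow this order. In Celf5, 4 coding-exon sites averaged 86.6%, 8 sites of untranslated or noncoding exons 35.3% and 26 intronic sites 21.6%. In Nova2, 36 coding-exon sites averaged 2.32%, 13 sites of untranslated or noncoding exons 26.6% and 13 intronic sites 16.1%. Sites of untranslated or noncoding exons were above intronic sites in Celf4 too (20.5% and 17.3%), and at a single site in Elavl3 (10.5% and 4.48%).

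**Figure D1:**
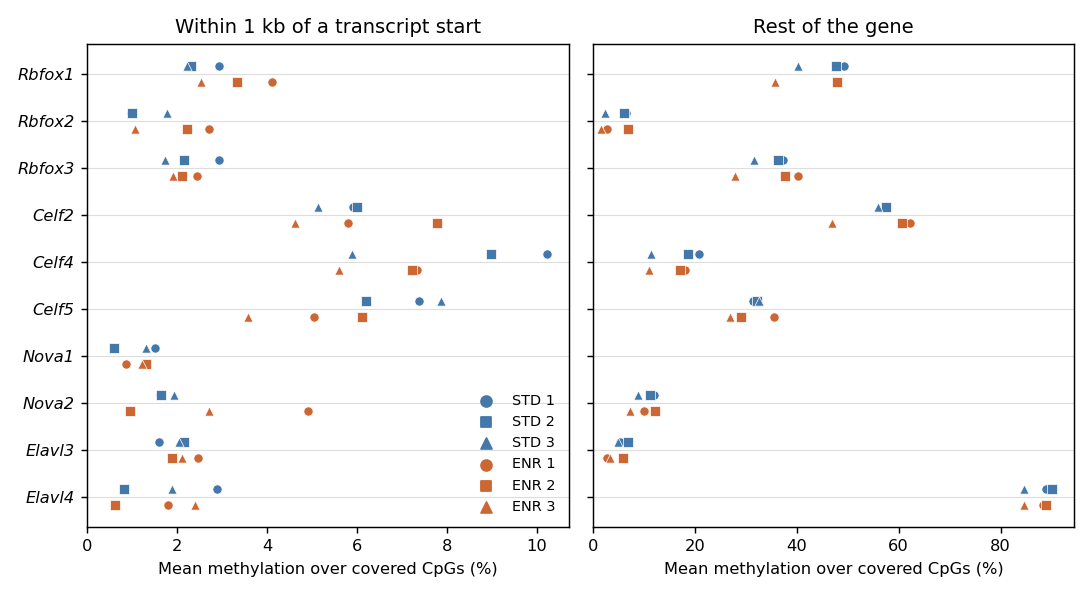
Mean methylation (%) of each gene in each of the 6 libraries, within 1 kb of a transcript start (left, axis to about 10%) and in the rest of the gene (right). Points are libraries, blue for STD and orange for ENR, and each symbol is a replicate number. Promoters lie between 0.597% and 10.2%, bodies reach 90.1% in Elavl4, and Nova1 has no body site.

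The promoter mean was below the body mean in 6 of 6 libraries in 9 of 9 genes. The difference was -85.8 percentage points ± 2.88 (SD, n = 6 libraries) in Elavl4, -50.9 ± 4.66 in Celf2, -41.9 ± 5.16 in Rbfox1, -33.0 ± 4.28 in Rbfox3 and -25.3 ± 2.80 in Celf5. It was smaller in Celf4 (-8.63 ± 2.45), Nova2 (-8.01 ± 2.81), Elavl3 (-2.87 ± 1.72) and Rbfox2 (-2.82 ± 2.62). With promoters narrowed to 500 bp the Elavl4 difference was -38.6 points, smaller than those of Celf2 (-53.3) and Rbfox1 (-41.9) at that width, and the Elavl3 difference was -1.49 points. For each of the 9 genes the exact permutation test by sign flips within libraries gave p = 0.03125 (two-sided, n = 6), the smallest value it can give. Among all 6866 genes with at least 5 sites in each region, 84.7% had the promoter below the body in every library, and the median difference was -37.8 points. The housing groups did not differ detectably in this difference, with exact permutation p from 0.2 to 1 in the 9 genes (n = 3 against 3). When medians over sites replaced means, 5 of the 9 genes kept the promoter below the body in every library, and in Rbfox2, Celf4, Nova2 and Elavl3 both medians were 0% in at least 1 library. With the strands of a CpG averaged, 7 genes kept it, and Rbfox2 and Elavl3 lost it (exact permutation p = 0.0625 each).

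Methylation was low up to 1 kb from the nearest transcript start of the same gene and higher beyond. It averaged 3.43% ± 0.593 (SD, n = 6 libraries) within 250 bp (378 sites), 2.58% ± 0.466 from 250 to 500 bp and 3.93% ± 0.580 from 500 to 1000 bp. From 1 to 2 kb it was 19.3% ± 5.84, although only 24 sites lie there, and from 2 to 5 kb 27.7% ± 6.41 (156 sites). Beyond 20 kb it reached 32.7% ± 2.58 at 364 sites from 5 genes.

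**Figure D2:**
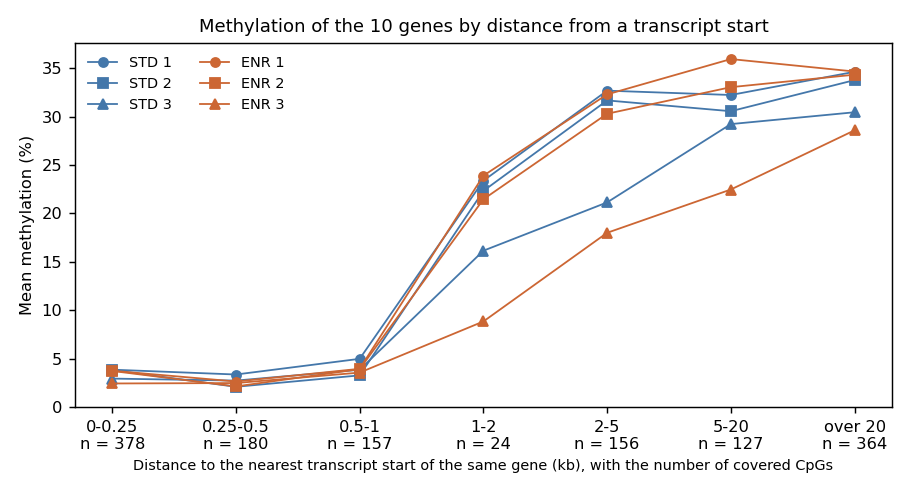
Mean methylation (%) of the covered CpGs of the 10 genes by distance (kb) from the nearest transcript start, 1 line for each library (blue STD, orange ENR) and the number of sites under each class. All 6 lines lie below 5% up to 1 kb and at 8.85% or above beyond it, and from 1 kb outwards the library numbered 3 is the lowest of its group in each class.

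Several of these genes start transcripts at many places, and starts within one gene did not look alike. Starts closer than 1 kb to each other were joined, which gave 50 start groups, of which 20 had covered sites, and 16 of the 20 averaged under 10%. In Rbfox3 the 3 covered start groups were all low, at 2.83% (26 sites, 3.59 kb into the gene), 1.94% (53 sites, 2.02 kb) and 2.19% (84 sites, 342 kb). Rbfox1 was low both at its gene start (2.85%, 64 sites) and 464 kb further on (3.35%, 7 sites). Celf2 had 1.35% at 29 sites near a start 637 kb into the gene and 5.63% at 16 sites near a start 428 kb in, but 13.3% at 6 sites 787 kb in. Those 6 sites had 8.94%, 11.0% and 6.78% in STD and 12.0%, 28.3% and 12.5% in ENR, higher in ENR without overlap. The only covered site at the first annotated start of Celf2 was methylated at 96.8%, with 100% in STD 1, 2 and 3 and in ENR 2, 90.9% in ENR 1 and 90% in ENR 3. With the promoter taken as within 1 kb of that first start alone, Celf2 is therefore 64.2 points above its body.

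The higher promoter means of Celf4 and Celf5 came from starts inside the gene. At the gene start of Celf4, 38 sites averaged 1.69%, and 40 sites around a start 267 kb into the gene averaged 14.3%, with 17.6%, 17.4% and 11.8% in STD and 14.1%, 14.03% and 10.8% in ENR. At the gene start of Celf5, 34 sites averaged 1.69%, while 20 sites around starts 9.33 kb into the gene averaged 7.21%. A further 13 sites around a start 7.87 kb into Celf5 averaged 15.6%, with 22.1%, 20.1% and 16.5% in STD and 11.4%, 17.9% and 5.32% in ENR.

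**Figure D3:**
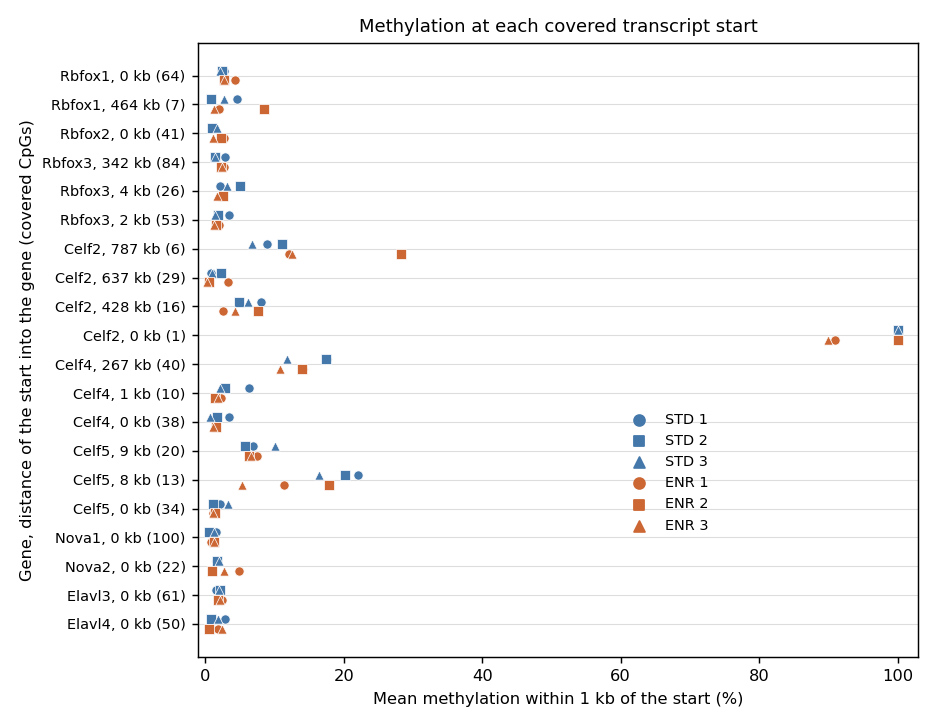
Mean methylation (%) within 1 kb of each of the 20 covered transcript start groups, with the distance of the start into the gene (kb) and the number of covered CpGs beside the gene name. Points are libraries (blue STD, orange ENR). All but 4 start groups average under 10%, and the single site at the first start of Celf2 lies at 90% or above in every library.

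Next, STD and ENR mice were compared gene by gene. In no gene did the 2 housing groups separate over the whole gene: the values of the libraries overlapped in 10 of 10 genes. Among 20891 genes with at least 5 sites, 5.36% had all ENR libraries below all STD libraries and 2.98% had them above. Limma, fitted across 20884 genes that varied, called 0 of the 10 genes and 0% of all genes at an adjusted p under 0.05. At an unadjusted p under 0.05 it counted 0 of the 10 genes and 771 of all. With 3 mice against 3 the exact permutation test cannot go below p = 0.1.

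Among the Rbfox genes, Rbfox1 averaged 27.4%, 26.2% and 22.2% in STD and 27.2%, 26.8% and 20.1% in ENR, a difference of ENR minus STD of -0.58 points (exact permutation p = 0.8). Rbfox2 averaged 2.25%, 2.17% and 1.91% in STD and 2.74%, 3.29% and 1.19% in ENR (0.30 points, exact permutation p = 0.7). Rbfox3 had 23.6%, 22.7% and 19.7% in STD and 25.2%, 23.6% and 17.6% in ENR (0.12 points, exact permutation p = 1). In Rbfox1 and Rbfox3 the library numbered 3 was the lowest of each group, and the distance between libraries of one group was several points against a group difference of under 1 point.

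In the Celf genes, Celf2 averaged 33.4%, 33.6% and 32.4% in STD and 36.1%, 36.1% and 27.3% in ENR (0.05 points, exact permutation p = 1). Celf4 had 16.9%, 15.2% and 9.47% in STD and 14.1%, 13.5% and 9.03% in ENR (-1.62 points, exact permutation p = 0.5). Celf5 had 16.1%, 15.6% and 16.8% in STD and 16.1%, 14.4% and 12.0% in ENR (-2.00 points, exact permutation p = 0.2). In Celf5 the highest ENR library lay above STD 2, and without ENR 3 the difference was -0.92 points. The Celf4 difference was -0.02 points without ENR 3 and -3.81 points without STD 3.

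The Nova and Elavl genes differed by less than 0.4 points. Nova1 averaged 1.497%, 0.597% and 1.30% in STD and 0.858%, 1.30% and 1.22% in ENR (-0.01 points, exact permutation p = 0.9). Nova2 averaged 9.31%, 8.73% and 7.11% in STD and 8.71%, 9.25% and 6.12% in ENR (-0.36 points, exact permutation p = 0.6). Elavl3 averaged 2.30%, 3.06% and 2.59% in STD and 2.52%, 2.63% and 2.36% in ENR (-0.15 points, exact permutation p = 0.7). Elavl4 averaged 12.1%, 10.4% and 10.7% in STD and 11.1%, 10.1% and 11.2% in ENR (-0.30 points, exact permutation p = 0.8). The median difference over the 10 genes was -0.23 points and over all genes -0.18 points.

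Split by region, 1 of the 10 promoters separated the groups. The promoter sites of Celf5, 67 in all, averaged 7.38%, 6.20% and 7.86% in STD and 5.04%, 6.11% and 3.58% in ENR, and each ENR library lay below each STD library, the nearest pair by less than 0.1 points. The difference was -2.24 points (exact permutation p = 0.1, n = 3 against 3, and limma p = 0.0481, adjusted p = 0.998). With same-numbered libraries taken as pairs, the smallest unadjusted limma p of the 10 promoters was 0.0857. It was 0.0614 on an arcsine scale, 0.111 without STD 1 and 0.0872 without ENR 1. Without any one of the other libraries, or without the variance trend, it stayed under 0.05. Among 17654 promoters, 5.65% were lower without overlap in ENR and 3.82% were higher, beside 1 and 0 of the 10 here. Without the 13 sites at the methylated start inside the gene the difference was -0.85 points (exact permutation p = 0.5), and after quantile normalization of the libraries it was -1.71 points (exact permutation p = 0.2), both alternatives chosen after seeing the data. None of the 9 gene bodies separated the groups, against 5.16% lower and 2.16% higher among 9835 bodies, and their differences ran from -1.85 points in Rbfox1 to 0.29 points in Rbfox3.

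At single sites, 27 of the 1386 differed by over 25 percentage points between the group means, 14 lower and 13 higher in ENR. Of the 27, 12 lay in Rbfox3, 5 in Celf2, 3 each in Rbfox1, Celf4 and Celf5 and 1 in Nova2, with none in Rbfox2, Nova1, Elavl3 or Elavl4. Rbfox3 also holds the most covered sites, 409 of the 1386, and 246 of the 671 body sites. Nova1 has no body site, and Elavl4, Rbfox2 and Elavl3 have 6, 12 and 14. The lower sites made 1.01% of the sites of the 10 genes and the higher sites 0.938%, beside 1.23% lower and 0.706% higher over all 890041 sites. Of the 27 sites, 17 had groups that did not overlap, 8 lower (0.577% of the 1386) and 9 higher (0.649%). The background was 0.516% lower and 0.294% higher. Of the 9 higher sites, 3 are plus-strand cytosines within 55 bp in 1 intronic tile of Rbfox3, so that they do not count as separate places. Promoters held 3 of the 27 sites and introns outside promoters 23, of 715 and 541 covered sites in these classes. Of the promoter sites 90.9% averaged under 10%, too low for a difference over 25 points. Of the body sites 3.58% were over 25 points, and the same share over all genes is not given. Limma, fitted on 615152 sites, called 0 of the 1051 sites of these genes that varied (smallest adjusted p = 0.852) and 0% of all sites, a count that does not show the groups to be alike at these sites. At an unadjusted p under 0.05 there were 28 of the 1051 sites (2.66%) and 16498 of all (2.68%). The count of 27 rose to between 36 and 45 when 1 library was left out, with 10 lower and 34 higher without ENR 3 but 32 lower and 12 higher without STD 3. Without both libraries numbered 3, an alternative chosen after seeing the data, it was 56, 28 lower and 28 higher.

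**Figure D4:**
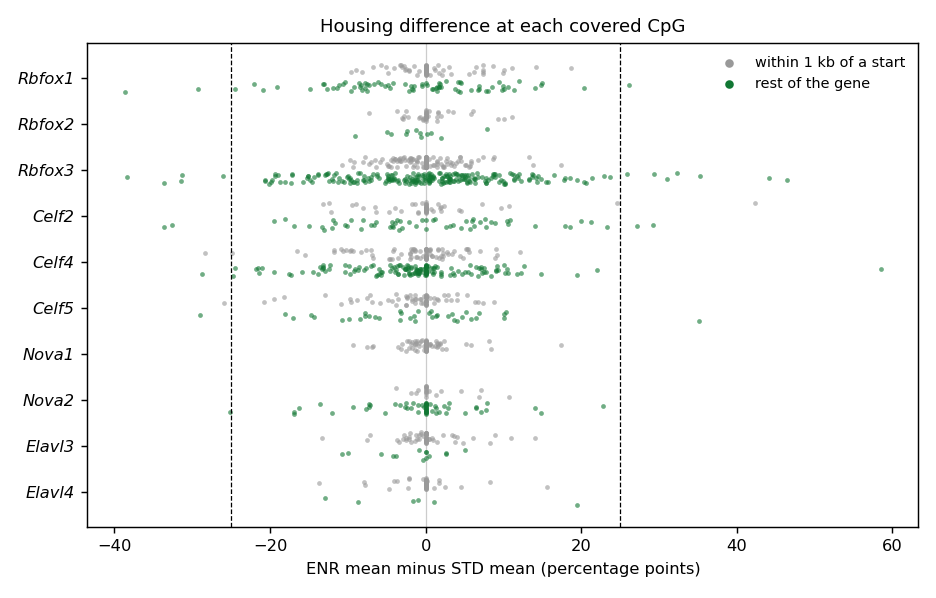
Difference of the group means (ENR minus STD, percentage points) at each of the 1386 covered CpGs, by gene, for sites within 1 kb of a transcript start (grey) and in the rest of the gene (green). Dashed lines mark 25 points in either direction, and the 27 sites beyond them lie mostly in the bodies of Rbfox3 and Celf2. These bodies hold 246 and 60 of the 671 body sites. Points are spread vertically at random for legibility.

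Of the sites over 25 points without overlap, the one with the lowest limma p in each gene and direction was chosen, which gave 10 sites. Below, 9 of them are shown with 31 bases around the measured cytosine, on its own strand (GRCm38) and with its CpG in capitals, to show the sequence of the positions described next. The chosen site of Celf4 is given by its values only.
Rbfox1, lower in ENR, chr16:6323282-6323312, minus strand: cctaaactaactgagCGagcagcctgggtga
Rbfox1, higher in ENR, chr16:6756085-6756115, minus strand: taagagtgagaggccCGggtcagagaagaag
Rbfox3, higher in ENR, chr11:118636085-118636115, plus strand: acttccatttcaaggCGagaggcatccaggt
Rbfox3, lower in ENR, chr11:118566900-118566930, minus strand: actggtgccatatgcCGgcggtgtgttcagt
Celf2, higher in ENR, chr2:6721429-6721459, minus strand: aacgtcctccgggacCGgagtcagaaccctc
Celf2, lower in ENR, chr2:7014963-7014993, plus strand: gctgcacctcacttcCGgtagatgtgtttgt
Celf5, higher in ENR, chr10:81477510-81477540, minus strand: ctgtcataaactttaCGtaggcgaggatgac
Celf5, lower in ENR, chr10:81477503-81477533, plus strand: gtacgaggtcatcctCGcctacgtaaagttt
Nova2, lower in ENR, chr7:18942359-18942389, minus strand: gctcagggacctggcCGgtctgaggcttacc
All 10 sites were intronic except that of Celf2 that was higher in ENR, which lies in a coding exon 169 bp from a transcript start. For each of them the exact permutation test gave p = 0.1, the smallest possible, as it must for groups that do not overlap.

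In Rbfox1, the site at position 6323297 of chromosome 16 had 100%, 87.9% and 100% in STD and 63.6%, 66.7% and 70% in ENR, a difference of -29.2 points (exact permutation p = 0.1, limma p = 0.00192, adjusted p = 0.852). A second site 26 bp before it was at 100% in all 3 STD libraries and at 59.1%, 80% and 45% in ENR, whereas another 24 bp behind it overlapped between the groups (2.01 points). At position 6756100, in another intron, STD had 70.9%, 76.2% and 44.4% and ENR 85.5%, 84.4% and 100%, a difference of 26.1 points, which was 16.4 points without STD 3. Rbfox1 thus held separated sites in both directions.

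Rbfox3 showed the same at larger numbers. The site at 118636100 of chromosome 11 had 57.1%, 73.1% and 43.5% in STD and 84.9%, 94.4% and 100% in ENR (35.2 points), and a covered site 51 bp away differed by -7.85 points. At 118566915 STD had 46.4%, 38.5% and 50% and ENR 0%, 23.1% and 11.1% (-33.6 points), while its 3 neighbours within 100 bp averaged a difference of 0.864 points. These differences were not shared by the nearest covered sites.

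In Celf4, the intronic site at 25568082 of chromosome 18 gave the largest difference of all 1386 sites. It was at 4.55%, 0% and 0% in STD and at 50%, 70% and 60% in ENR (58.5 points, exact permutation p = 0.1, limma p = 0.00355, adjusted p = 0.852). A neighbour 48 bp away had 10.9%, 0% and 31.2% in STD and 0%, 70% and 0% in ENR, so that only ENR 2 was high at both. In Celf2, the coding-exon site had 24.4%, 0% and 0% in STD and 50%, 70% and 31.2% in ENR (42.3 points). Its 5 neighbours within 100 bp averaged 1.98 points but ran from -8.97 to 24.6 points. The one at 24.6 points overlapped between the groups, with 100% in ENR 2. The 1 kb tile of these 6 sites was higher in ENR without overlap (8.70 points). The intronic Celf2 site at 7014978 of chromosome 2 had 92.5%, 81.2% and 83.9% in STD and 54.5%, 78.9% and 26.3% in ENR (-32.6 points, and -19.1 points without ENR 3).

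In Celf5, the chosen sites were neighbouring CpGs with differences in opposite directions, neither of them called by limma. The plus-strand cytosine at 81477518 of chromosome 10 had 29.4%, 62.5% and 45% in STD and 25.9%, 0% and 23.8% in ENR (-29.1 points). The minus-strand cytosine 7 bp further on had 23.8%, 25.8% and 30.3% in STD and 46.7%, 90.9% and 47.6% in ENR (35.1 points, and 20.5 points without ENR 2). At each of these CpGs the cytosine of the other strand overlapped between the groups, with differences of 1.41 and -9.80 points. In Nova2 the intronic site at 18942374 of chromosome 7 had 36.7%, 18% and 20.6% in STD and 0% in each ENR library (-25.1 points), and its 2 neighbours within 100 bp were lower in ENR too, with a mean difference of -5.06 points and overlapping groups.

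Neighbouring sites were then joined in 1 kb tiles with at least 3 sites. The 10 genes held 114 tiles, of which 6 (5.26%) were lower and 4 (3.51%) higher in ENR without overlap, beside 5.29% and 3.57% of 72392 tiles in all. Limma called 0 of the 114 tiles and counted 4 at an unadjusted p under 0.05 (3.51%), beside 3.98% of all tiles tested. Of the 10 tiles without overlap, the 3 with the lowest p are described. The first lies in an intron of Rbfox3 (chr11:118825001-118826000), whose sequence is the fourth stretch given above. Its 7 cytosines averaged 16.9%, 8.98% and 11.2% in STD and 38.8%, 34.8% and 19.8% in ENR, a difference of 18.8 points (limma p = 0.0194, adjusted p = 1, exact permutation p = 0.1). The lowest ENR library was above the highest STD library by less than 3 points.

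Within this Rbfox3 tile the difference lay on the plus strand. The 4 plus-strand cytosines, in order of their coordinates, differed by 44.2, 29.3, 23.0 and 31.04 points, and the first of them had 17.5%, 11.8% and 20.97% in STD and 76.7%, 66% and 40% in ENR. The 3 minus-strand cytosines differed by 3.10, -2.69 and 3.51 points, and 2 of these belong to the same CpGs as the third and the fourth plus-strand cytosines. At the third CpG the plus strand had 13.8%, 4.35% and 0% in STD and 31.1%, 45.1% and 10.8% in ENR. The minus strand there had 20.7%, 4.65% and 17.3% in STD and 20.3%, 16.3% and 15.4% in ENR. Over the 208 CpGs of the 10 genes with both strands covered, the strands differed by 7.06 points on average, and by 11.2 points at the 87 of them outside promoters. The reason for the strand difference was not tested.

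**Figure D5:**
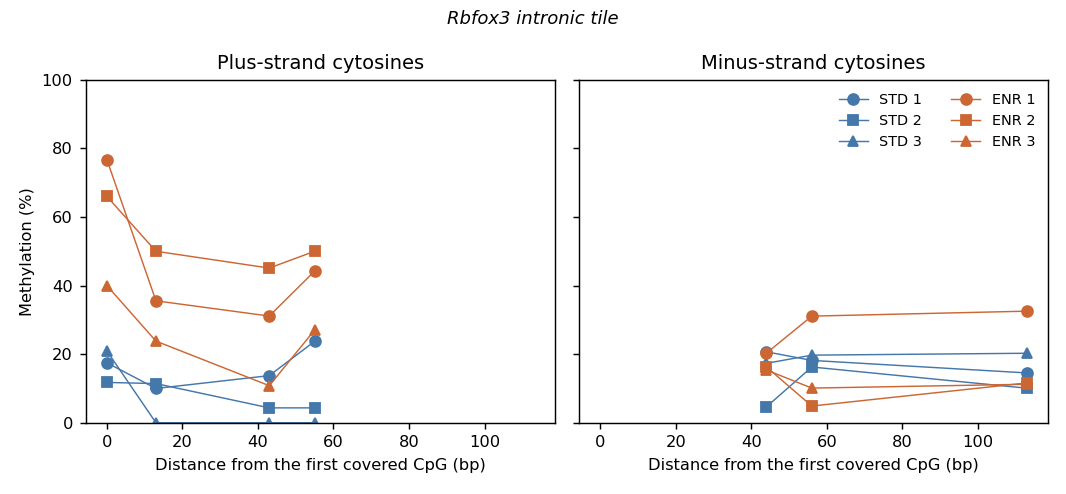
Methylation (%) at the 7 covered cytosines of the Rbfox3 intronic tile against their distance (bp) from the first, plus strand on the left and minus strand on the right. Lines are libraries (blue STD, orange ENR). On the plus strand the ENR libraries lie above the STD libraries at the first, second and last cytosine, whereas the groups overlap at all 3 minus-strand cytosines.

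The next tile without overlap, in an intron of Celf2 (chr2:7087001-7088000), had 54.9%, 42.5% and 43.1% in STD and 68.9%, 78.7% and 57.4% in ENR over 3 cytosines, all on the minus strand and all higher in ENR by 19.9 to 23.3 points. Only at 1 of the 3 cytosines did the groups not overlap. The tile difference was 21.5 points (exact permutation p = 0.1, limma p = 0.0368, adjusted p = 1). The last of the 3 tiles, of 18 sites near the gene start of Celf4 (chr18:25753001-25754000), was low throughout, with 5.22%, 3.05% and 2.11% in STD and 1.79%, 0.823% and 1.57% in ENR. There the difference was -2.06 points (exact permutation p = 0.1, limma p = 0.0577, adjusted p = 1), and the groups overlapped at each of the 18 sites. Without STD 1 the tile difference was -1.18 points.

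As a wider reference, 39 further genes for RNA-binding and splicing regulators, such as the Ptbp, Mbnl, Cpeb and Khdrbs genes, were examined, of which 38 had at least 5 covered sites. In ENR 26 of the 38 had a lower mean and 12 a higher mean. Without overlap 2 were lower and 0 higher, beside 5.36% lower and 2.98% higher over 20891 genes. Limma called 0, with 1 at an unadjusted p under 0.05, beside 771 of the 20884 genes tested. The median difference was -0.12 points, beside -0.18 points over all genes, 57.8% of which had a lower mean in ENR. Ptbp3, a polypyrimidine tract-binding repressor of exons, had 5.18%, 5.17% and 5.01% in STD and 4.12%, 4.09% and 2.16% in ENR (-1.66 points, adjusted p = 1.00 by limma). The genes of lowest p with a higher mean in ENR, Msi1 (1.15 points) and Qk (0.28 points), overlapped between the groups.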

How the data were processed

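RRBS libraries of 6 mice (3 STD, 3 ENR) were analysed. The submitters' processing notes name Trim Galore 0.4.0, cutadapt 1.8.1, Bismark 0.16.1 and methylKit 1.5.2. Per the study's methods, the authors mapped to mm10 and kept cytosines with at least 10 reads. They deposited the percent of methylated reads for each CpG cytosine and library, without read numbers, so that the read-count test of the study could not be run and depth per site and library is unknown. A site read 10 times moves in steps of 10 points. The authors' values were not normalized further. No column of sample values was left unused.

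Sites were assigned to GENCODE M21 gene records on the same assembly (GRCm38). All 1386 sites were CpGs in the reference, and 116 also lie in another annotated gene. Exon classes refer to the gene's own transcripts. Means over sites per library were compared by two-sided exact permutation over the 20 regroupings, and promoter with body by sign flips within libraries. Limma 3.58.1 (R 4.3.3, variance trend) was fitted to all varying sites, genes (at least 5 sites) and 1 kb tiles (at least 3 sites). Benjamini-Hochberg adjustment ran over each whole table. The fit was also tried with simulated shifts added to rows of low methylation. Large shifts of genes were recovered, but those of single sites only when very many sites were shifted by a large amount. The gene shifts were far larger than the -2.00 points of Celf5, the largest whole-gene difference of the chosen genes. The trial therefore cannot show whether differences of the observed size would be called. The named sites were, of those over 25 points without overlap, the lowest limma p per gene and direction, the named tiles the 3 lowest p without overlap, and the named wider-list genes the 2 lowest p per direction, of which 1 is not reported here. The genes, lists and tests were chosen with earlier results of these data known. Same-numbered libraries come from different mice. Their deviations from the group means correlated at 0.0348 to 0.135 over all sites and at 0.140 to 0.383 over genes, and STD 2 correlated better with ENR 1 (0.146) than with ENR 2 over genes. Alternatives covered left-out libraries, a replicate block, strands, summaries, normalization, promoter width and limits.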

Additional observations from a re-analysis of the deposited data

How the results depend on the processing

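The number of sites over 25 points was 52 with a limit of 20 points, 4 with a limit of 40, 47 with group medians, 17 where groups had to be without overlap, 36 to 45 with 1 library left out and 56 with both libraries numbered 3 left out. With the replicate block, that is, same-numbered libraries taken as pairs that share a direction, 19 sites remained, and the block changed no other call. Of the 10 named sites, 5 (Rbfox1 6756100, Celf2 7014978, Nova2 and both of Celf5) fell under 25 points without some library. Limma called 0 genes and 0 sites of the 10 genes under every alternative run. The number of genes with the promoter below the body was 5 with medians over sites, 7 with strands averaged, 7 of 8 with promoters at the gene start only, where Rbfox3 has no covered site, and 9 with both libraries numbered 3 left out. Leaving out 1 library raises the smallest p of that test to 0.0625, so such p-values say nothing about stability. Celf2 reversed to 64.2 points with promoters at the gene start only, where Celf4 had -13.5 points. With medians over sites Celf4 had -3.19, Elavl3 -1.30 and Nova2 0 points.

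Gene differences reversed in 8 of 10 genes (all but Celf4 and Celf5). With 1 library left out they ran from -2.10 to 1.75 points in Rbfox1, -0.14 to 0.91 in Rbfox2, -1.41 to 2.39 in Rbfox3, -1.43 to 2.98 in Celf2, -0.27 to 0.18 in Nova1, -0.998 to 0.59 in Nova2, -0.33 to 0.0533 in Elavl3 and -0.65 to 0.21 in Elavl4. Celf4 and Celf5 kept their sign but moved by over 1.5 times, Celf4 from -3.81 without STD 3 to -0.02 without ENR 3 and -0.08 without STD 1, and Celf5 to -0.92 without ENR 3 and -0.60 without both libraries numbered 3. The order of the genes by size changed with these settings. Quantile normalization gave 0.16 in Rbfox1, 0.28 in Nova1, 0.22 in Nova2 and 0.26 in Elavl3. Means of tile means gave -0.89 in Rbfox2, -0.80 in Rbfox3, -0.48 in Celf2, 0.0273 in Nova1 and 4.84 in Elavl4. Averaged strands gave -0.10 in Celf2, 0.10 in Nova1 and 0.000886 in Elavl3, and medians over sites -0.42 in Rbfox3. Without both libraries numbered 3, Rbfox1 gave 0.22 and Nova1 0.0319. The cause was not tested.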

Other observations

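Some regions of these genes differed widely between mice of one housing group. Of the tiles with at least 5 sites in the 10 genes, the 3 with the widest range over the 6 libraries are given, a choice made after their values were seen. At the 3′ end of Celf4 (chr18:25478001-25479000, 16 sites in an untranslated or noncoding exon) the libraries had 66.5%, 41.4% and 14.9% in STD and 51.1%, 30.4% and 6.07% in ENR. The library numbered 1 was the highest and the library numbered 3 the lowest in each group, and ENR was below STD at each of the 3 numbers (group difference -11.7 points, exact permutation p = 0.7). This range of 60.4 points was reached by 0.293% of 44742 tiles with at least 5 sites. In an intron of Celf2 (chr2:7183001-7184000, 5 sites) the libraries had 24.4%, 58.1% and 24.9% in STD and 63.7%, 34.9% and 13.2% in ENR, a range reached by 0.805% of those tiles. In an intron of Rbfox3 (chr11:118885001-118886000, 6 sites) they had 22.1%, 50.5% and 10.4% in STD and 28.2%, 13.2% and 4.08% in ENR, a range reached by 1.25% of them. ENR 3 was the lowest library at all 3 tiles. The part that cell composition or depth has in these ranges was not tested.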
